A study of Mus musculus with 3 samples.

Results

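The genes described here are 6 of the 24006 gene symbols in the deposited count tables: the homeobox genes Rhox5, Rhox6 and Rhox9, and Mageb16, Fmr1nb and Xlr3a, which are known from germ cells and tumours. They were chosen by symbol, and the choice was made with their low counts in both knockout libraries already known, so their folds over wildtype are a description and carry no test. They account for 12 of the 48843 transcript rows. All 6 lie on the X chromosome, at chrX:37804842-37808876 on the plus strand (Rhox5), chrX:37826910-37829857 on the plus strand (Rhox6), chrX:37899097-37901770 on the minus strand (Rhox9), chrX:79623231-79671435 on the minus strand (Mageb16), chrX:68761839-68804567 on the plus strand (Fmr1nb) and chrX:73086293-73097095 on the minus strand (Xlr3a), in GENCODE M21 on build GRCm38.

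The libraries come from mouse embryonic stem cells, cultured pluripotent cells that keep the potential of the early embryo, grown in serum with leukaemia inhibitory factor and moved from feeder cells to gelatin. There was 1 library of polyadenylated RNA for each genotype: an ATRX-/- clone, a DAXX-/- clone and a wildtype clone, all male, isogenic and of C57BL/6x129sV background, with the knockouts made by CRISPR targeting. Each genotype is thus a single clone, so a difference between genotypes and a difference between clones cannot be told apart, and no difference below has a replicate check. Intervals in parentheses are 95% counting intervals of reads and cover counting error only, as there is no replicate. They treat reads as independent, which copies made by PCR are not.

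The Rhox genes form a cluster of homeobox transcription factor genes on the mouse X chromosome that is used mainly in testis, epididymis, ovary and placenta. Cancer-testis genes are silent in most adult tissues, active in male germ cells and switched on again in many tumours, and a large share of them lie on the X chromosome. Genes of both kinds are classical examples of promoters that carry DNA methylation in somatic cells and gain transcripts when DNA methyltransferases are lost. ATRX, which remodels chromatin, and DAXX, which escorts histones, together place the histone variant H3.3 at heterochromatin and retroviral repeats. DNA methylation was not measured in these libraries.

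Promoter sequence was at hand for 4 of the 6 genes, from RefSeq on build GRCm38.p6, and is shown because the genes share low counts and a known link to CpG methylation. Each line gives the 250 bases before the RefSeq start, read 5′ to 3′ on the gene's own strand, with every CG dinucleotide in capitals. The windows are chrX:37754358-37754607 on the plus strand for Rhox5, chrX:79671436-79671685 on the minus strand for Mageb16, chrX:68761589-68761838 on the plus strand for Fmr1nb and chrX:73097096-73097345 on the minus strand for Xlr3a.
Rhox5: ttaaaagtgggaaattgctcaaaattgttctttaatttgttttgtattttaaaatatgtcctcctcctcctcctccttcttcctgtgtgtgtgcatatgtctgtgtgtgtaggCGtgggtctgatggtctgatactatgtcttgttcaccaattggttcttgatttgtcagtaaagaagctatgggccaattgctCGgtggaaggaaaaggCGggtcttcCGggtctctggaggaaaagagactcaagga
Mageb16: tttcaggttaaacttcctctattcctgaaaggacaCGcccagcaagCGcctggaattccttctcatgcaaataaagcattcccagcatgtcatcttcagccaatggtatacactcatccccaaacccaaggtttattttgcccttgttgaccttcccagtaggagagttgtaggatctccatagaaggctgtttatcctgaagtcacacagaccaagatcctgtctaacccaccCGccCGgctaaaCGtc
Fmr1nb: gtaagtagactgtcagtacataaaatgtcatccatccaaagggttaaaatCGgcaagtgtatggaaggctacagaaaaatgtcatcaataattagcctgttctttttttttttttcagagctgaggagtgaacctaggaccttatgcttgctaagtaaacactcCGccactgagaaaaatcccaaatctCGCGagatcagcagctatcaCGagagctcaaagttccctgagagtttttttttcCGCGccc
Xlr3a: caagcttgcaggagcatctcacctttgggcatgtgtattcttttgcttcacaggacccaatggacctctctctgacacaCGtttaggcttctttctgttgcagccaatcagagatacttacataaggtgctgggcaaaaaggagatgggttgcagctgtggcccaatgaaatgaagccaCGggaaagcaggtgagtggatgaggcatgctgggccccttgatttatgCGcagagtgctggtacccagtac
None of these 4 windows is rich in CG, the pair of bases at which mouse DNA is methylated. The Rhox5 window held 4, the Mageb16 window 5, the Fmr1nb window 7 and the Xlr3a window 3, against a median of 6 and quartiles of 2 and 16 over 32851 promoter windows of the same length. The Rhox5 window begins far from the transcripts that were counted: the RefSeq start lies 50.2 kb upstream of the first Ensembl start. It held the letters CCGGAA, searched for on both strands, the core bound by ETS-family factors, which 12% of all windows hold. CACGTG, bound by MAX and its partners (6.02% of all windows), GCGGGAA, bound by E2F factors (3.82%), and TGACGTCA, bound by CREB-family factors (1.55%), were in none of the 4 on either strand. No window held more than 1 of these motifs, so none overlapped, and a match is a stretch of letters, not a measured binding site.

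The 3 libraries were of similar depth, with 13988376 reads on transcripts in the ATRX knockout, 11224100 in the DAXX knockout and 13981915 in wildtype. Atrx had 1800 reads in the ATRX knockout, 3576 in the DAXX knockout and 4582 in wildtype, and its log2 fold in the ATRX knockout was -1.28 (-1.36 to -1.20). Daxx had 972, 623 and 1125 reads in the same order, and its log2 fold in the DAXX knockout was -0.44 (-0.59 to -0.30), inside a 2-fold limit. Markers of stem cells, Pou5f1 and Nanog among them, were present in all libraries, and 0 of 10 passed that limit in either knockout. Most genes tested did not pass it either. A gene was called lower or higher when the whole counting interval of its fold lay beyond 2-fold and either or both of the libraries set against each other reached 1 CPM (reads scaled to a common library size). Y-linked RNA did not match the label male in full: Ddx3y, an RNA helicase gene, had 0 reads in the ATRX knockout, 0 in the DAXX knockout and 775 in wildtype. Eif2s3y had 705, 32 and 768 reads in the same order, and Kdm5d, which was not called, had 35, 49 and 88. Of 5 Y-linked genes tested 1 was called lower in the ATRX knockout and 4 in the DAXX knockout. Of all genes tested, 1.15% were called lower and 0.695% higher in the ATRX knockout, and 1.55% and 0.487% in the DAXX knockout.

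Rhox5, the founding gene of the cluster and a homeobox gene also called Pem, was the one called between the knockouts, of the 2 members that could be tested there. It had 7 reads in the ATRX knockout, 34 in the DAXX knockout and 253 in wildtype, or 0.506, 3.11 and 17.4 CPM in that order. Its log2 fold over wildtype was -5.11 (-6.44 to -4.04) in the ATRX knockout and -2.49 (-3.05 to -1.96) in the DAXX knockout. The ATRX knockout thus kept 2.90% of the wildtype level and the DAXX knockout 17.9%. Its pair of transcript rows were both low, with 4 and 3 reads in the ATRX knockout, 14 and 20 in the DAXX knockout and 140 and 113 in wildtype. The shorter transcript lies wholly within the longer one in stretches of 50 bases, so the split between the rows says nothing about which was made.

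Rhox6 and Rhox9 are the placental members of the cluster, first described as Psx1 and Psx2 from trophoblast. Rhox6 had 3 reads in the ATRX knockout, 4 in the DAXX knockout and 55 in wildtype. Its log2 fold was -4.13 (-6.45 to -2.51) in the ATRX knockout and -3.37 (-5.30 to -1.93) in the DAXX knockout. Rhox9 had 4, 4 and 44 reads in the same order of libraries, with log2 folds of -3.39 (-5.33 to -1.93) and -3.05 (-4.99 to -1.59). The counting intervals of the knockouts overlapped for both genes, and the wildtype count stood above either. The pair share sequence: 16.5% of the 50-base stretches of Rhox6 also occur in Rhox9, so a part of their reads could have been exchanged, and both were low in each knockout. The long Rhox9 transcript, in which 28.4% of such stretches are shared with the short one, had 1 read in the ATRX knockout, 2 in the DAXX knockout and 19 in wildtype, and the short one had 3, 2 and 25.

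The other 30 Rhox symbols in the tables were close to silent in these cells. Of them 17 had 0 reads in all libraries and 0 had a mean of 1 CPM. Of the 2 that could be tested, 0 were called in either direction in either knockout, and most genes tested were not. The shares of all genes tested were 1.15% lower and 0.695% higher in the ATRX knockout, and 1.55% and 0.487% in the DAXX knockout. Rhox10 had 10 reads in the ATRX knockout, 4 in the DAXX knockout and 24 in wildtype. Rhox13, a homeobox gene of male germ cells, had 6, 8 and 16 in the same order, and Rhox1 had 0, 3 and 12. Summed, these genes had 20 reads in the ATRX knockout, 19 in the DAXX knockout and 66 in wildtype, with log2 folds over wildtype of -1.65 (-2.45 to -0.91) for the ATRX knockout and -1.39 (-2.21 to -0.63) for the DAXX knockout. The sum was lower in both knockouts than in wildtype, and both intervals crossed the 2-fold limit.

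Mageb16, a member of the melanoma antigen family whose products partner with ubiquitin ligases, was the most abundant of the 6. It had 48 reads in the ATRX knockout, 56 in the DAXX knockout and 800 in wildtype, or 3.47, 5.13 and 55.1 CPM. Its log2 fold was -3.99 (-4.44 to -3.57) in the ATRX knockout and -3.43 (-3.84 to -3.03) in the DAXX knockout, the narrowest intervals of the set. The knockouts kept 6.29% (4.60% to 8.42%) and 9.30% (6.96% to 12.2%) of the wildtype level, and these ranges overlap. Its transcripts start 35.9 kb apart. The one with the distal start had 23 reads in the ATRX knockout, 34 in the DAXX knockout and 415 in wildtype, and the one with the proximal start had 25, 22 and 385. As 87.9% and 94.7% of their 50-base stretches are common to both, these counts do not tell the starts apart.

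No other Mage gene was called, and most genes tested were not. Of all genes tested, 1.15% were called lower in the ATRX knockout and 1.55% in the DAXX knockout, and 0.695% and 0.487% higher. Of 20 further Mage symbols, 11 had 0 reads in all libraries and 4 were tested, with 0 called in either knockout. These 4 belong to the branch of the family that is expressed in many tissues. Maged1 had 2099 reads in the ATRX knockout, 1563 in the DAXX knockout and 1982 in wildtype, and log2 folds of 0.15 (0.06 to 0.24) and 0.07 (-0.03 to 0.16). Maged2 was at -0.03 (-0.29 to 0.24) and 0.11 (-0.16 to 0.38), Mageh1 at 0.32 (-0.05 to 0.69) and 0.28 (-0.11 to 0.67), and Magee1 at -0.57 and -0.77, with the ATRX knockout given before the DAXX knockout. Mageb4, a germ-cell member nearer to Mageb16, had 3 reads in the ATRX knockout, 0 in the DAXX knockout and 11 in wildtype, under the level at which a call was made. Magee2, with 8, 3 and 13 reads in the same order, was under that level too.

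Fmr1nb, which encodes the cancer-testis antigen NY-SAR-35 and lies beside the fragile X gene Fmr1, was the one member without a read in either knockout. It had 0 reads in the ATRX knockout, 0 in the DAXX knockout and 131 in wildtype. With its count set to a floor of 3 reads in the knockout library, it was 41.7-fold lower in the ATRX knockout and 32.9-fold lower in the DAXX knockout. The counting intervals of its log2 fold ended at -5.06 and -4.72, so somewhat smaller folds lie within counting error. The wildtype reads were spread over all of its transcript rows, with 49, 40 and 42. The floor of 3 reads is 0.217 CPM in the ATRX knockout and 0.275 CPM in the DAXX knockout, and the upper end of the 95% interval of a count of 0 is 0.266 and 0.338 CPM, against 9.02 CPM measured in wildtype.

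Xlr3a belongs to the X-linked lymphocyte-regulated family, whose proteins resemble the meiotic chromosome protein SYCP3. It had 1 read in the ATRX knockout, 0 in the DAXX knockout and 56 in wildtype. Its log2 fold was -5.74 (-11.07 to -3.20) in the ATRX knockout. In the DAXX knockout it was 14.04-fold lower with its count set to the floor of 3 reads, and its counting interval ended at a log2 fold of -3.47. Its value is uncertain as a value of 1 gene, since 59.6% of its 50-base stretches also occur in Xlr3b, Xlr3c or the Xlr4 genes. Xlr3a, Xlr3b and Xlr3c together had 2 reads in the ATRX knockout, 0 in the DAXX knockout and 78 in wildtype. The 11 other Xlr and Slx symbols had 2, 2 and 49 reads in the same order, of which Xlr3b had 1, 0 and 13. None of these 11 reached the level for a call. Their sum gave a log2 fold of -4.55 (-7.63 to -2.62) in the ATRX knockout and -4.20 (-7.29 to -2.27) in the DAXX knockout, so the reads of the whole family were low together.

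**Figure D1:**
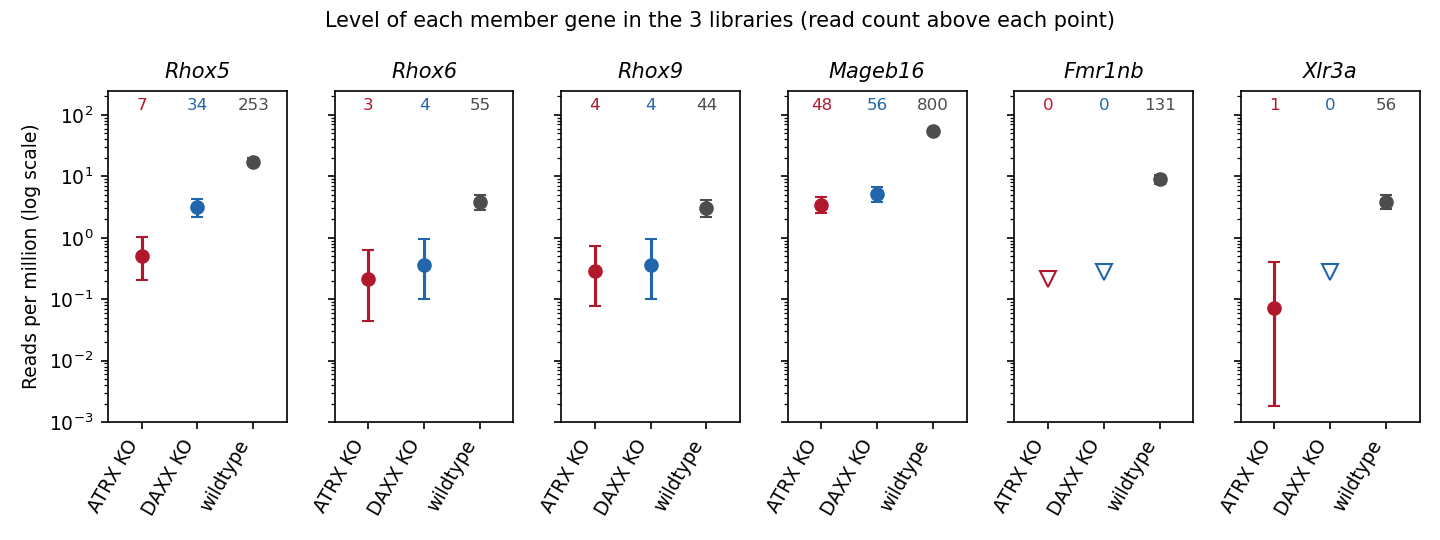
Level of each gene in the ATRX knockout, DAXX knockout and wildtype library, in CPM on a log axis, with the read count printed above each point. Filled points are levels with bars for the 95% counting interval, open triangles mark the floor of 3 reads for a count of 0, and in all 6 panels the wildtype interval lies above the points of both knockouts.

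The 6 members together had 63 reads in the ATRX knockout, 98 in the DAXX knockout and 1339 in wildtype, or 4.55, 8.97 and 92.2 CPM. All 6 were called lower in the ATRX knockout, where 1.15% of 13230 genes tested were called lower, and all 6 in the DAXX knockout, where 1.55% of 13151 were. These counts follow from how the genes were chosen. The median log2 fold of the members, with a prior count of 1, was -4.34 in the ATRX knockout and -3.27 in the DAXX knockout, beside 0.02 and 0.03 over the 12759 genes that averaged 1 CPM or more across the libraries (measured genes). With genes at 0 set to their floor the medians were -4.62 and -3.40. Mageb16 carries most of the reads. Without it the sums were 15, 42 and 539 reads in the ATRX knockout, the DAXX knockout and wildtype.

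**Figure D2:**
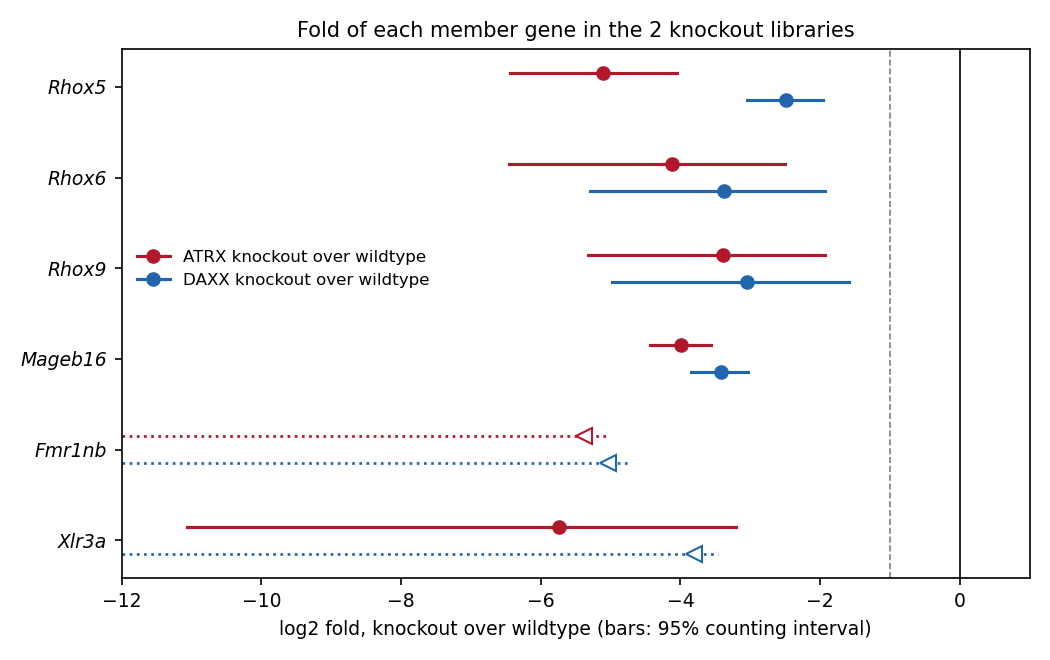
The log2 fold of each gene over wildtype, ATRX knockout above and DAXX knockout below in each row, with bars for the 95% counting interval. Dotted bars and open triangles mark folds against a count of 0, with the triangle at the floor of 3 reads, the dashed line is the 2-fold limit at -1, and every bar ends to the left of it.

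The order of the members differed between libraries. Per kilobase of transcript, Mageb16 was the highest in wildtype at 30.8 CPM per kb (28.7 to 33.0), then Rhox5 at 25.1 (22.1 to 28.4) and Fmr1nb at 11.8 (9.83 to 13.95), all above the 9.79 CPM per kb of the median measured gene. Rhox6 at 3.75 (2.83 to 4.88), Rhox9 at 2.49 (1.81 to 3.35) and Xlr3a at 2.39 (1.80 to 3.10) followed, and these last 3 overlap in their intervals. In the ATRX knockout Mageb16 was again the highest, at 1.94 CPM per kb (1.43 to 2.58), ahead of Rhox5 at 0.725 (0.292 to 1.49). In the DAXX knockout Rhox5 was the highest, at 4.59 CPM per kb (3.18 to 6.42), and Mageb16 stood second at 2.85 (2.15 to 3.70), with intervals that overlap. All 6 were below the median measured gene in both knockouts, which was 10.03 CPM per kb in the ATRX knockout and 10.09 in the DAXX knockout.

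Between the knockouts, Rhox5 was the member that was called. It was lower in the ATRX knockout than in the DAXX knockout, with 7 reads against 34 and a log2 fold of -2.62 (-4.04 to -1.43), in a comparison where 0.362% of 12991 genes tested were called lower and 0.77% higher. The call was lost when the more abundant of its transcripts was used alone. Mageb16, with 48 reads in the ATRX knockout and 56 in the DAXX knockout, was at -0.56 (-1.15 to 0.02) and was not called. Rhox6, Rhox9, Fmr1nb and Xlr3a were under 1 CPM in both knockouts and could not be tested. The interval for Rhox6 ran from -3.53 to 1.81 and that for Rhox9 from -2.77 to 2.08, so differences of several-fold in either direction were not detectable at this depth. Reads of all 33 Rhox symbols gave 34 in the ATRX knockout and 61 in the DAXX knockout, which is -1.19 on the log2 scale (-1.84 to -0.56).

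Most measured genes around the members were not called, as was true of most genes tested. Within 1000 kb of a member's start there were 36 measured genes that are not members. Of these 1 was called lower in each knockout, where 1.15% (ATRX knockout) and 1.55% (DAXX knockout) of all genes tested were. The same gene was called in both. It was Pnma5, a paraneoplastic antigen gene 59.99 kb from Xlr3a, with 5 reads in the ATRX knockout, 3 in the DAXX knockout and 45 in wildtype and log2 folds of -3.10 (-4.79 to -1.77) and -3.50 (-5.83 to -1.86). The other neighbours ranged from -0.39 to 0.95 in the ATRX knockout and from -0.72 to 0.65 in the DAXX knockout on the log2 scale with a prior count of 1, while the folds of single neighbours here are without a prior count. Fmr1, the RNA-binding protein gene whose start is 83.3 kb from that of Fmr1nb, had 1725 reads in the ATRX knockout, 1463 in the DAXX knockout and 1747 in wildtype. On the sides of the Rhox cluster, Rnf113a1 was at -0.04 in the ATRX knockout and 0.66 in the DAXX knockout, and Zbtb33, the gene for Kaiso, at 0.15 in each. The F8a gene on the other side of Xlr3a was at 0.36 and 0.63. The nearest measured genes to Mageb16 lay beyond that distance, Prkx 1875 kb away on one side, at -0.07 and 0.00, and Tmem47 1399 kb away on the other, at 0.84 and 0.79. Ids, the neighbour of Fmr1nb at 1603 kb, was at -0.31 and -0.23.

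**Figure D3:**
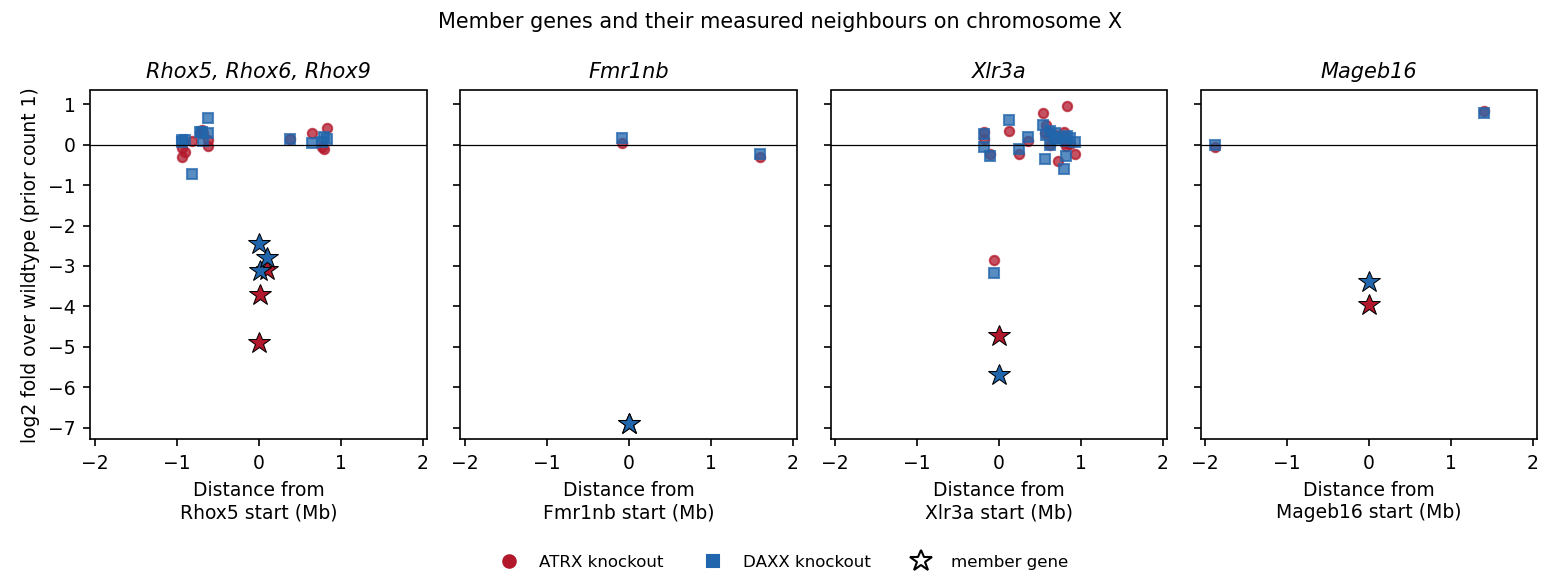
The log2 fold over wildtype (prior count 1) against distance in Mb from the start of Rhox5, Fmr1nb, Xlr3a or Mageb16, for the members (stars) and the measured genes around them (circles for the ATRX knockout, squares for the DAXX knockout). Neighbours other than Pnma5, the low pair beside Xlr3a, lie between -0.72 and 0.95, and the stars of Fmr1nb coincide because both knockouts had 0 reads, so that their height is set by the prior count.

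Over the X chromosome as a whole the median log2 fold of 405 measured genes was -0.01 in the ATRX knockout and 0.02 in the DAXX knockout, close to the autosomal medians of 0.02 and 0.03. Of the X-linked genes that are not members, 8 of 420 tested were called lower in the ATRX knockout and 20 of 421 in the DAXX knockout, beside 1.15% and 1.55% of all genes tested, and 0 were called higher in either.

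A list of other genes of germ cells and tumours, drawn up for the X chromosome, held few that could be tested. It also held Zfy1, which is Y-linked and was not tested. Of 29 symbols counted, 15 had no read in any library, and 6 were tested in each comparison with wildtype. Beside the calls that follow, 1.15% of all genes tested were called lower in the ATRX knockout and 1.55% in the DAXX knockout. Usp26, a deubiquitinase gene of testis, was the 1 called lower in the ATRX knockout, with 1 read there, 0 in the DAXX knockout and 26 in wildtype, and this call was lost when its most abundant transcript was used alone. In the DAXX knockout 3 were called lower: Usp26, the RNA export gene Nxf3, with 6 reads in the ATRX knockout, 0 in the DAXX knockout and 27 in wildtype, and the meiotic gene Tex11, with 165, 67 and 394. Tex11 was at -1.19 (-1.46 to -0.92) in the ATRX knockout, where its interval crossed the limit, and Taf7l, a germ-cell form of a general transcription factor subunit, was at 0.13 (-0.78 to 1.04) and -0.88 (-2.18 to 0.30).

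Some autosomal germline genes known for methylated promoters were lower as well. Of 22 tested, 9 were called lower in the ATRX knockout and 8 in the DAXX knockout, where 1.15% and 1.55% of all genes tested were called lower. None of the 22 was called higher in either knockout, where 0.695% and 0.487% of all genes were. The median log2 fold of the 20 measured genes was -0.87 in the ATRX knockout and -1.19 in the DAXX knockout. Sohlh2, a transcription factor of early germ cells, had 50 reads in the ATRX knockout, 25 in the DAXX knockout and 258 in wildtype. Tuba3a, a testis tubulin, had 68, 39 and 264, and Hormad2, a meiotic chromosome protein, 31, 13 and 139. Stk31 had more reads in each knockout than in wildtype, at 1.01 (0.80 to 1.23) in the ATRX knockout and 0.44 (0.20 to 0.69) in the DAXX knockout, and was not called, since its interval in the ATRX knockout crossed the limit. Sohlh2, Tuba3a and Hormad2 each had fewer reads in the DAXX knockout than in the ATRX knockout, but the intervals of these differences include 0. None of 20 genes tested was called between the knockouts in either direction.

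**Figure D4:**
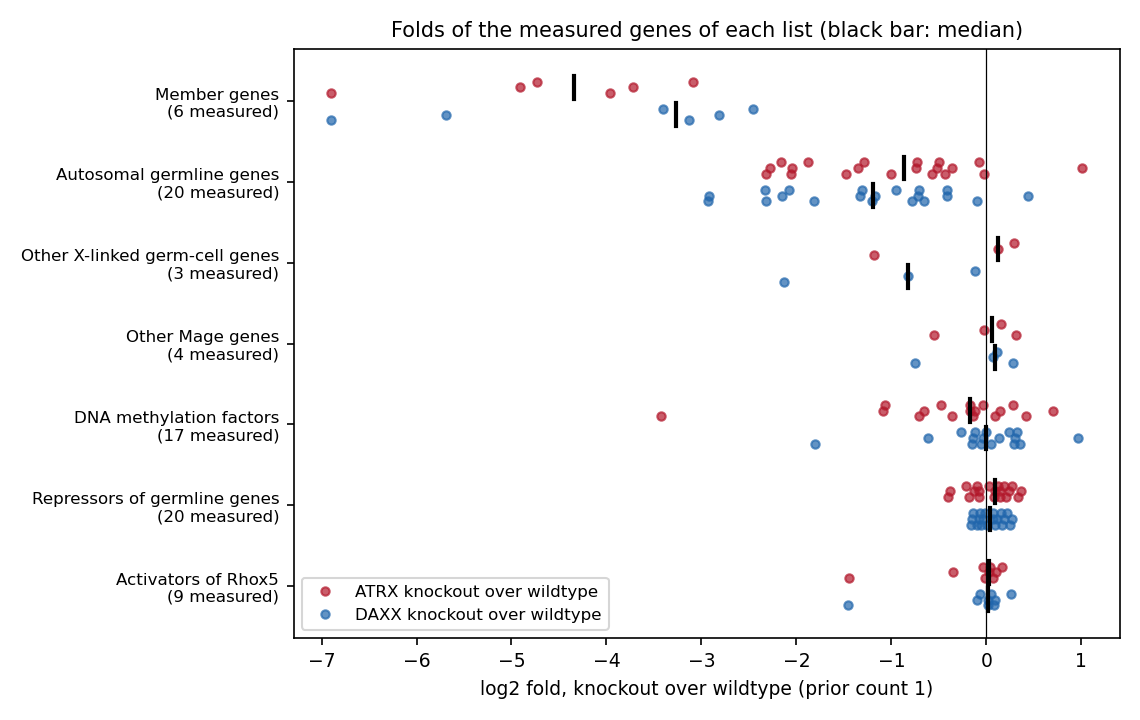
The log2 fold over wildtype (prior count 1) of the measured genes in 7 lists, the ATRX knockout above the DAXX knockout in each row, with black bars for medians. The members lie between -6.90 and -2.46, the autosomal germline genes have medians of -0.87 and -1.19, and the lists of repressors and activators centre within 0.1 of 0.

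Of all genes tested, 1.15% were called lower in the ATRX knockout and 1.55% in the DAXX knockout. Among 17 genes listed as DNA methylation factors, not all of which write, read or erase the mark, 1 was called lower in each. It was Dppa3, which protects methylation in the zygote, in the ATRX knockout, with 10 reads there, 60 in the DAXX knockout and 123 in wildtype. In the DAXX knockout it was Dnmt3l, the cofactor of the de novo enzymes, with 411 reads in the ATRX knockout, 195 in the DAXX knockout and 905 in wildtype. The maintenance pair Dnmt1 and Uhrf1 were at 0.10 (0.04 to 0.15) and 0.42 (0.37 to 0.47) in the ATRX knockout and at 0.30 (0.24 to 0.36) and 0.33 (0.27 to 0.38) in the DAXX knockout. Dnmt3b was at -1.08 (-1.23 to -0.94) in the ATRX knockout, where its interval crossed the limit, and at -0.14 (-0.26 to -0.01) in the DAXX knockout. Tet1, which erases the mark, was at -0.71 (-0.75 to -0.66) in the ATRX knockout and -0.03 (-0.07 to 0.01) in the DAXX knockout. Trim28, the most abundant of the list, was at -0.37 (-0.39 to -0.34) and 0.05 (0.02 to 0.08). Of 20 repressors of germline genes, among them E2f6, Mga, Pcgf6, Setdb1 and Ehmt2, 0 were called in either knockout, where most genes tested were not called. The median of these 20 was 0.09 in the ATRX knockout and 0.04 in the DAXX knockout. E2f6 itself was at 0.10 (-0.10 to 0.30) and -0.02 (-0.23 to 0.20).

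No tested gene in the lists of Rhox5 activators and reported RHOX5 targets was called relative to wildtype, and most genes tested were not. Of all genes tested, 1.15% were called lower and 0.695% higher in the ATRX knockout. In the DAXX knockout these shares were 1.55% and 0.487%. Of 9 tested factors that activate the Rhox5 promoters 0 were called. The ETS factor subunit Gabpa had 2278 reads in the ATRX knockout, 1816 in the DAXX knockout and 2331 in wildtype. Ets1 was the lowest, with 14, 11 and 42 reads and log2 folds of -1.52 (-2.50 to -0.62) and -1.52 (-2.63 to -0.54). Of 6 genes reported as RHOX5 targets in Sertoli cells of the testis 2 were measured. Adipor2 was at 0.04 (-0.07 to 0.15) in the ATRX knockout and 0.06 (-0.06 to 0.17) in the DAXX knockout. Pltp, a phospholipid transfer protein gene, was at 0.96 (0.77 to 1.16) and -0.39 (-0.65 to -0.12), and was called higher in the ATRX knockout than in the DAXX knockout, at 1.35 (1.11 to 1.59).

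Rhox5, Rhox6 and Rhox9 are also used in extraembryonic tissues, and the summed levels of markers of those cells were lower in both knockouts than in wildtype, though most of the trophoblast markers tested were not called. The 14 primitive endoderm markers had 6706 reads in the ATRX knockout, 3423 in the DAXX knockout and 11106 in wildtype, which is 63.3% and 41.0% of the wildtype level. Of the 13 tested, 3 were called lower in the ATRX knockout and 11 in the DAXX knockout. The shares of all genes tested called lower, 1.15% in the ATRX knockout and 1.55% in the DAXX knockout, stand beside these counts and those of the marker lists that follow. Gata4 had 75 reads in the ATRX knockout, 9 in the DAXX knockout and 97 in wildtype. Sox17 had 8, 0 and 20 in the same order. Foxa2, too low to be tested, had 2, 0 and 4. The 14 trophoblast markers kept 74.2% of their wildtype level in the ATRX knockout and 67.4% in the DAXX knockout, with 1 and 2 of 8 tested called lower. Of their 1910 wildtype reads Krt8 held 615 and Tfap2c 612, and not all markers followed the sum. Tfap2c was at 0.27 (0.10 to 0.44) in the DAXX knockout, and Ascl2 and Krt7 had more reads in the ATRX knockout than in wildtype. Of the defining trophoblast markers, Eomes had 63 reads in the ATRX knockout, 53 in the DAXX knockout and 68 in wildtype. Elf5 had 0, 1 and 0 in the same order, Cdx2 had 13, 3 and 0, and Tpbpa had none. The 12 feeder fibroblast markers kept 59.2% and 33.3%, with 284, 126 and 503 reads, and 1 and 4 of 6 tested were called lower. Tagln held 207 of their wildtype reads, while in wildtype Col3a1 had 2 reads, Postn 1, Dcn 1 and Lum 0. Fbln2 did not follow the sum in the ATRX knockout, with 94 reads there against 83 in wildtype. Of 6 tested genes that define germ cells 1, Dazl, was called lower in each knockout, while Ddx4 kept 537 reads in the ATRX knockout and 471 in the DAXX knockout, against 836 in wildtype. The part of these cells in the low member counts was not tested, and fewer cells of a type and less RNA per cell cannot be told apart in bulk RNA.

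Genes elsewhere in the genome were ranked by how like the members' their pair of folds was. Likeness was the straight-line distance between a gene's log2 folds in the knockouts and the members' medians, and it rests on 3 libraries. It was taken over 11252 genes with at least 30 wildtype reads. The members and genes with provisional names, such as Gm and Rik names, were left out of that number. The 8 nearest were Rec114, Slc4a5, Ceacam20, Prss23, Lincenc1, Magohb, Tfpi and Zscan5b, at distances from 0.534 to 1.18. Rec114, a gene of meiotic recombination on chromosome 9, was the nearest, with 5 reads in the ATRX knockout, 6 in the DAXX knockout and 88 in wildtype. Lincenc1, a long noncoding RNA of stem cells, had 108, 115 and 1381, and Magohb, a copy of an exon junction complex gene, had 9, 7 and 167. None of those with a position in the annotation lies on the X chromosome.

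**Figure D5:**
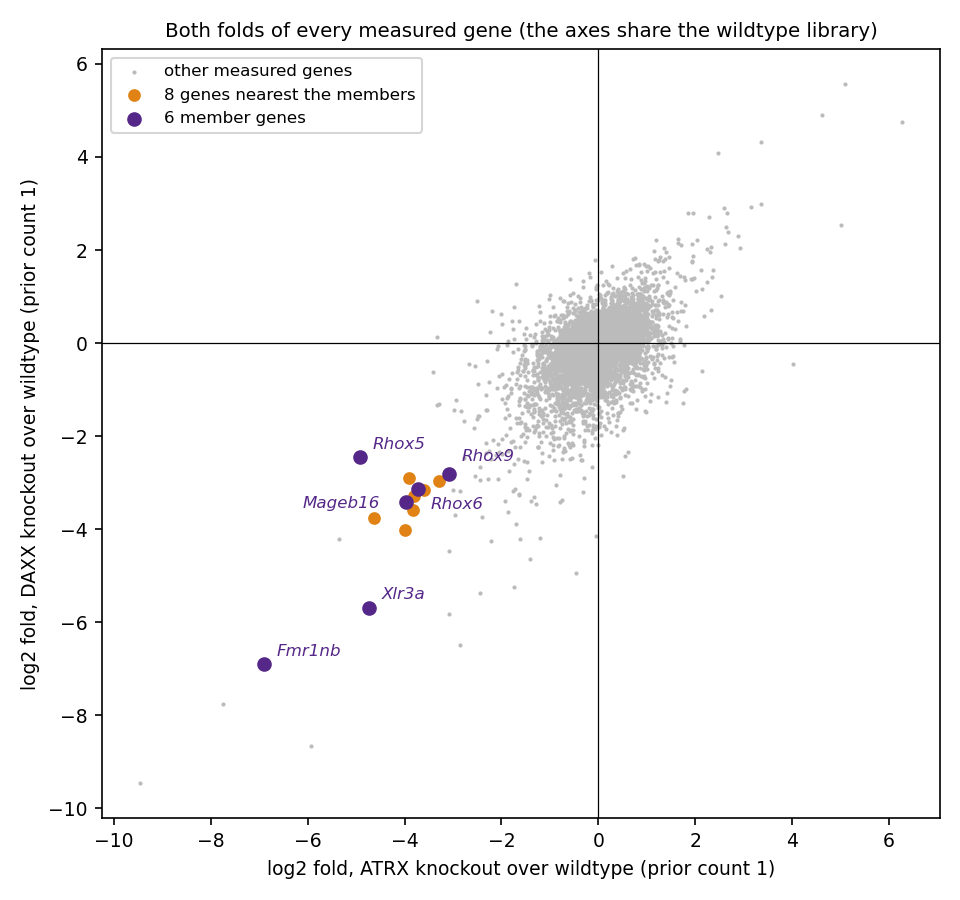
The log2 fold in the ATRX knockout (horizontal) against that in the DAXX knockout (vertical), both over wildtype with a prior count of 1, for all measured genes in grey, the 8 genes nearest the members in orange and the 6 members in purple. The axes share the wildtype library, so points spread along the diagonal in part for that reason, and the members lie in the lower left between -6.90 and -2.46.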

How the data were processed

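The values are read counts, not normalised, as the authors deposited them: 1 table per library of reads aligned to 50407 transcript and repeat sequences, with the length in bases of each sequence per the layout of the file. Build GRCm38.p4, SAMtools and the aligner Bowtie 1.1.2 are named, per the submitters' processing notes. Alignment settings, use of strand and annotation release are not given in the sources used here, so antisense reads cannot be separated and near-identical genes can exchange reads. Counts of the transcripts of a symbol were summed and scaled by TMM (edgeR 4.0.16, R 4.3.3), with factors of 0.990 for the ATRX knockout, 0.973 for the DAXX knockout and 1.04 for wildtype. With 1 library per genotype there are 0 residual degrees of freedom, so edgeR's quasi-likelihood test could not be run and no p-value was computed. The 1564 repeat sequences, with 0.776%, 0.991% and 0.703% of aligned reads in the ATRX knockout, DAXX knockout and wildtype, were left out. The fold of 2 counts was given a Clopper-Pearson interval in its place, from the binomial share of one count in their sum, which covers counting error only, and levels have exact Poisson intervals. A count of 0 was replaced by a floor of 3 reads per library. Levels per kb sum CPM over transcript length. Shared sequence was measured as 50-base stretches in GENCODE M21 transcripts.

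The members and the 15 gene lists beside them were chosen with earlier results of these data known. Genes named are the members, list genes called or among the most abundant, Rhox, Mage and Xlr genes with at least 10 reads in any library, the nearest measured genes on both sides and the 8 most alike. Others, such as Ets1, E2f6, Ascl2, Krt7 and the markers at or near 0, were picked after their values were seen. Alternatives were other scalings, fold limits, a representative transcript, thinned counts and no filter.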

Additional observations from a re-analysis of the deposited data

How the results depend on the processing

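All 6 members stayed lower in both knockouts than in wildtype under scaling by total counts, DESeq2 size factors (DESeq2 1.42.0), the most abundant transcript per gene, thinned counts, no filter on low counts and a 1.5-fold limit. With a 4-fold limit 5 were called lower in the ATRX knockout and 3 in the DAXX knockout. The single member called between the knockouts, Rhox5, was not called with a 4-fold limit (0 members) or with the most abundant transcript (0 members), which rests on fewer reads. No log2 fold of a called member changed sign. Over all genes, the 1.5-fold limit gave 364 lower and 336 higher in the ATRX knockout over wildtype, 412 and 184 in the DAXX knockout over wildtype, and 193 and 325 in the ATRX knockout over the DAXX knockout, and the 4-fold limit gave 37 and 17, 50 and 16, and 5 and 8 in the same order. Other scalings moved the median of all measured genes by at most 0.09 on the log2 scale. Summing all Rhox genes gave -3.55 in the ATRX knockout, outside the interval of Rhox5 alone. Depth limits Rhox6, Rhox9, Xlr3a and Fmr1nb most, at 0 to 4 reads in each knockout. No paired analysis was possible because each genotype has 1 library and the labels number no replicates.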

Other observations

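Other X-linked genes, picked here after their values were seen, were also lower. In the ATRX knockout the 8 that were called beside the members were Atrx itself, Dmrtc1c2, Klhl13, Klhl4, Nxf7, Pnma5, Stard8 and Usp26. Klhl4, a kelch-family gene, had 0 reads in the ATRX knockout, 1 in the DAXX knockout and 44 in wildtype. Nxf7, of the RNA export factor family to which Nxf3 belongs, had 1 read in each knockout and 24 in wildtype. Klhl13, a ubiquitin ligase adaptor gene, had 104 reads in the ATRX knockout, 67 in the DAXX knockout and 312 in wildtype, with log2 folds of -1.52 (-1.85 to -1.19) in the ATRX knockout and -1.81 (-2.21 to -1.42) in the DAXX knockout. Esx1, a placental homeobox gene of the X chromosome outside the Rhox cluster, had 94 reads in the ATRX knockout, 21 in the DAXX knockout and 98 in wildtype, and was called higher in the ATRX knockout than in the DAXX knockout, at 1.82 (1.13 to 2.58). Fndc3c1 was called higher there too, with 35 reads in the ATRX knockout, 3 in the DAXX knockout and 46 in wildtype. So was Tceal3, with 31, 4 and 11 reads in the same order. In this comparison 3 of 403 X-linked genes tested were called higher, beside 0.77% of all genes tested. Rhox5 had the opposite order, with its lower count in the ATRX knockout.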
